A study of Mus musculus with 10 samples.

Results

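The 33 immediate-early and stress response genes described here were taken by symbol from the 24421 gene symbols common to all 10 RNA sequencing libraries of splenic Ly6Chigh monocytes, and each was found in every library. They comprise 6 subunits of the transcription factor AP-1 (Fos, Fosb, Fosl2, Jun, Junb and Jund) and 2 bZIP factors that pair with these or bind related sites (Atf3 and Maff). They further comprise 8 other regulators of transcription (Egr1, Egr2, Egr3, Klf6, Nr4a2, Nr4a3, Csrnp1 and Nfkbiz), 3 genes named for their immediate-early response (Ier2, Ier3 and Ier5) and 4 genes of mRNA decay (Zfp36, Zfp36l1, Btg1 and Btg2). The remaining members are 6 genes of signalling (Dusp1, Dusp2, Dusp5, Rhob, Gadd45b and Sgk1) and 4 genes of heat shock and translation stress (Hspa1a, Hspa1b, Dnajb1 and Ppp1r15a).

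The libraries fall into 3 groups of mice operated on 5 days before the spleen was taken, namely WT mice (C57BL/6) after sham surgery (3 libraries, replicates 1, 2 and 3), WT mice after myocardial infarction (MI; 3 libraries, replicates 2, 3 and 4) and Foxp3DTR mice after MI (4 libraries, replicates 1 to 4). The study used males of 8 to 10 weeks. MI was produced by tying off the left anterior descending coronary artery for good, and sham mice had the chest opened only, both under buprenorphine. In Foxp3DTR mice the Foxp3 promoter drives a human receptor for diphtheria toxin (DTX), which makes regulatory T-cells (Tregs) sensitive to the toxin, and no Foxp3DTR mice after sham surgery are among the samples. The toxin protocol was 500 ng on day 2 and on day 1 before the operation and 250 ng on day 2 after it. The WT mice set against Foxp3DTR mice after MI were toxin-treated according to the text of the study. For sham mice toxin is not stated separately in the sources used here. Cells were depleted of T- and B-cells on columns and sorted as CD11b+ Ly6G- F4/80+ Ly6Chigh CD115+, and libraries were made from 20 to 50 pg of RNA. The labels do not tie libraries to animals, but the study describes the replicates of this experiment as animals. It gives 4 animals per group for Foxp3DTR against WT mice after MI, whereas 3 WT MI libraries are among the samples.

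Immediate-early genes are transcribed within minutes of a signal, from promoters already loaded with factors such as SRF and CREB, and need no new protein for it. Their products are often short-lived and include both factors that pass the signal on (AP-1, EGR and NR4A proteins) and factors that end it (the phosphatases of the DUSP family and tristetraprolin, the product of Zfp36, which marks AU-rich mRNAs for decay). In monocytes they respond to adhesion, cytokines and Toll-like receptor ligands, and also to warming and enzymatic or mechanical handling of tissue.

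Promoter sequences of a few members are shown because they carry the elements through which such signals are read. RefSeq (GRCm38.p6) had promoter windows, 250 bases before to 50 after a start site, for 29 of the 33 members. The full cAMP response element (CRE, TGACGTCA), bound by CREB and ATF proteins, was in the windows of 4 of 29 members (Btg2, Dusp1, Ppp1r15a and Maff) and in 2.03% of all genes with a window. The CArG box, bound by SRF, was in 3 of 29 (Zfp36, Egr2 and Dusp5) and in 1.81% of all genes. The core TGACG, on either strand and including the full CRE, was in 17 of 29 and in 23.05% of all genes. The AP-1 site (TGACTCA or TGAGTCA) was in 1 of 29 (Csrnp1) and in 5.95% of all genes, and a pair of heat shock units (GAANNTTC or TTCNNGAA) was in 6 of 29 and in 17.0% of all genes. In the following 250 bases before the start site, printed 5′ to 3′ in the direction of the gene, capitals mark the full CRE (Btg2, Dusp1, Ppp1r15a), the CArG box (Zfp36), the heat shock pair (Hspa1a) and, in Fos, where no full element of these was found, the TGACG cores.
Fos, chr12:85473640-85473889, strand +: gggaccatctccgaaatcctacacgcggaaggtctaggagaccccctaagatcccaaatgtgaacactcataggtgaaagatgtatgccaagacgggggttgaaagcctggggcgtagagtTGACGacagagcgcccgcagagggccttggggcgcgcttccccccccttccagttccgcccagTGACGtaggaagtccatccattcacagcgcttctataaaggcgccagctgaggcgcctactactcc
Zfp36, chr7:28379229-28379478, strand -: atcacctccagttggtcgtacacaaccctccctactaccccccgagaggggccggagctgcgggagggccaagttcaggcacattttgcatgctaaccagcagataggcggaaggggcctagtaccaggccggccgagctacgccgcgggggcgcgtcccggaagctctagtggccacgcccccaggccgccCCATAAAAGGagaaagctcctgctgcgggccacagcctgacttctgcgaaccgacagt
Dusp1, chr17:26508473-26508722, strand -: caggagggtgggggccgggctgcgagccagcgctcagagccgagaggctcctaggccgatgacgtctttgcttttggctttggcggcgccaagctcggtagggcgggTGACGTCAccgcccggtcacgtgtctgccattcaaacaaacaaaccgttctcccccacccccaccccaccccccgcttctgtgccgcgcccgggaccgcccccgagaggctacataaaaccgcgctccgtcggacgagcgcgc
Btg2, chr1:134079156-134079405, strand -: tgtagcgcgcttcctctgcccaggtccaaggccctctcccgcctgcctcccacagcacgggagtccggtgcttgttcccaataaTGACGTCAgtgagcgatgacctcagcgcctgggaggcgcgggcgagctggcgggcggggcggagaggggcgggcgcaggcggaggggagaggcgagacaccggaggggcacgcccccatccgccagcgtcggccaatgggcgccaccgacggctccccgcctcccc
Ppp1r15a, chr7:45526269-45526518, strand -: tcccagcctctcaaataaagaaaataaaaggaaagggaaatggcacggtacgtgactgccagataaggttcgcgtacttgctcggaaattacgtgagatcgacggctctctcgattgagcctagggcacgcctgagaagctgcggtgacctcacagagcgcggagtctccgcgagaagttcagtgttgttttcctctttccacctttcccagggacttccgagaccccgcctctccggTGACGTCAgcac
Hspa1a, chr17:34972157-34972406, strand -: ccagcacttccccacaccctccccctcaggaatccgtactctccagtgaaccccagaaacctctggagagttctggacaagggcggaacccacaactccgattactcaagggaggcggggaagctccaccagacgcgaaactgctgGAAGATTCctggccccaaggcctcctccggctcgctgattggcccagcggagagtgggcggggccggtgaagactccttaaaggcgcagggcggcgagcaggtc
The CRE lay 166 bases upstream of the start site in Btg2, 143 in Dusp1 and 12 in Ppp1r15a. The CArG box of Zfp36 lay 58 bases upstream, and the 2 TGACG cores of Fos lay 129 and 66 bases upstream. Hspa1a and Hspa1b, neighbouring genes for the inducible chaperone HSP70, had windows identical at 296 of 300 positions. A match of letters is a description of the sequence and was not tested for binding.

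Levels are given as TPM (a level per transcript length, as a share of all transcripts of the library) divided by a scaling factor per library, and are called scaled TPM. Differences are log2 fold changes of scaled TPM + 1 from limma, fitted over all 10 libraries and 12938 genes that reached 1 TPM in 3 or more libraries, with Benjamini-Hochberg adjusted p-values and a threshold of 0.05. Of the 33 members 32 were tested, and Egr3, a zinc finger factor of the EGR family, was too low (listed at 0 in WT sham library 2 and at no more than 0.86 scaled TPM in any library). The depth that the tables carry was 3.13 to 8.40 M reads. It was lowest in WT sham library 2 (3.13 M) and second lowest in WT MI library 4 (5.24 M).

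The members did not vary evenly between libraries of 1 group, and WT sham library 2 stood apart from every other library. It was the highest of all 10 libraries in 26 of 33 members, which was the case for 21.0% of all genes tested, and the highest of the 3 sham libraries in 29 of 33 members (37.2% of all genes). It was also the lowest of all 10 libraries in 22.5% of all genes, against 2 of 33 members, so that over all genes it was extreme in both directions. Fosb, an AP-1 subunit that is nearly silent in resting cells, stood at 5.48, 182 and 8.95 scaled TPM in sham libraries 1, 2 and 3. Atf3, a stress-induced ATF factor, stood at 50.9, 428 and 58.4, and Nr4a2, an orphan nuclear receptor, at 2.81, 33.5 and 2.93. Dusp1, the phosphatase that switches off p38 and JNK, was at 356, 1359 and 164 scaled TPM. In each of these genes library 2 was far above both other sham libraries. More than 2 times the higher of the other sham libraries was reached in library 2 by 14 members (Fos, Fosb, Jun, Junb, Atf3, Maff, Dusp1, Dusp2, Zfp36, Nr4a2, Nr4a3, Nfkbiz, Hspa1b and Ppp1r15a), against 3.59% of all genes.

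**Figure D1:**
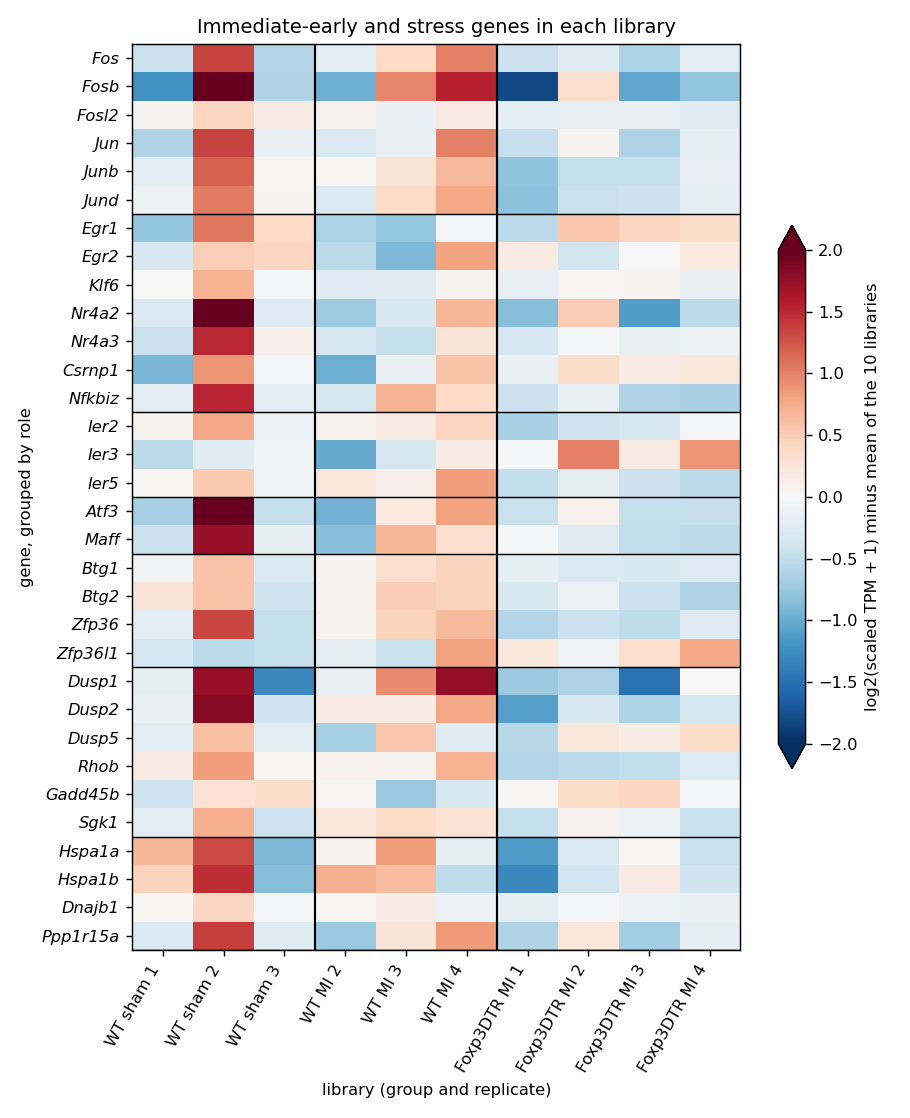
Deviation of log2(scaled TPM + 1) from the mean of the 10 libraries (colour, from -2 to 2) for the 32 tested members in rows, grouped by role, and the libraries in columns. WT sham library 2 is red in most rows with a median deviation of 1.05, WT MI library 4 has 0.51, and the Foxp3DTR libraries lie between -0.47 and -0.13.

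On the log2 scale the median deviation of the members from their means was 1.05 in sham library 2 and -0.22 and -0.21 in sham libraries 1 and 3. It was -0.20, 0.18 and 0.51 in WT MI libraries 2, 3 and 4, and -0.47, -0.13, -0.38 and -0.21 in Foxp3DTR libraries 1 to 4. WT MI library 4 was the highest of its group in 23 of 33 members, against 33.1% of all genes. The median SD of a member within a group was 0.82 in sham libraries, 0.53 after MI in WT mice and 0.26 in Foxp3DTR mice, where the median gene had 0.26, 0.23 and 0.18. Sham libraries 1 and 3 alone gave 0.16 for the members and 0.16 for the median gene. The 2 libraries with the highest median deviations were also the 2 shallowest, and the part of depth in this was not tested. In sham library 2 scaled TPM summed to 27.9 over T cell, 72.2 over NK cell and 636 over neutrophil markers. Each of these sums lay between those of sham libraries 1 and 3. Its sums over Ly6Chigh (50031) and Ly6Clow (1708) monocyte markers were the highest of all 10 libraries. Those over plasma cell (318) and mitosis (107) markers were the lowest of all, and that over B cell markers (13.6) was the lowest of the sham libraries.

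The comparison of Foxp3DTR with WT mice after MI addresses what a reduction of Tregs does to splenic monocytes of infarcted mice. In the spleen and other lymphoid organs the study reports fewer Foxp3+ cells among CD4+ T-cells of Foxp3DTR mice, but not their absence. AP-1 subunits, mRNA decay factors and the signalling genes Dusp1, Rhob and Sgk1 were mostly lower in Foxp3DTR mice, whereas Ier3 and Gadd45b were higher, but 0 of the 32 tested members passed the test (limma, lowest adjusted p = 0.072), while 145 genes did (1.12% of those tested). By unadjusted p under 0.05, 9 members were lower and 2 were higher, against 8.42% and 9.31% of all genes. All 4 Foxp3DTR libraries lay below all 3 WT libraries in 11 members and above them in 0, against 9.02% and 9.97% of all genes. The fold change was negative in 23 of 32 members, against 49.9% of all genes, and its median was -0.52 in the members and 0.00080 in all genes tested.

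Among AP-1 subunits, Fos (chr12:85473901-85477270, mm10), the partner of JUN proteins and one of the most abundant members, stood at 569.9, 872 and 1326 scaled TPM in WT MI libraries 2, 3 and 4. It stood at 490.5, 556, 424 and 567 in Foxp3DTR libraries 1 to 4, all of them below the lowest WT library by a small margin. The log2 fold change of -0.78 (SE 0.43) did not pass the test (limma, adjusted p = 0.37), and without WT MI library 4 it was -0.48. Junb (chr8:84976909-84978748), which replaces JUN in less active dimers, stood at 399.7, 464 and 608 in WT mice and at 222, 281, 281 and 346 in Foxp3DTR mice. Its libraries did not overlap, and the difference on the log2 scale was -0.79 (SE 0.30, limma, adjusted p = 0.21). Jund, the subunit present in unstimulated cells, was at 56.4, 90.7 and 119 in WT mice and at 38.8, 50.8, 51.4 and 60.6 in Foxp3DTR mice, where the highest Foxp3DTR library reached above the lowest WT library (log2 fold change -0.76, SE 0.30, limma, adjusted p = 0.23). Fosl2, a FOS-related subunit that follows later, was at 81.7 to 102 scaled TPM in WT mice and at 75.7 to 81.1 in Foxp3DTR mice, again without overlap. Jun (92.1 to 229 against 73.2 to 117) and Fosb (6.61 to 42.5 against 3.30 to 17.8) overlapped between the groups. Atf3 overlapped widely as well, with 42.1 to 143 in WT mice and 58.5 to 87.1 in Foxp3DTR mice, and so did the small MAF protein gene Maff with 5.96 to 18.8 and 7.66 to 11.2.

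Of the mRNA decay genes, Zfp36 (chr7:28376784-28379228) had the highest mean level of all members. It stood at 863, 1133 and 1307 scaled TPM in WT MI libraries 2, 3 and 4 and at 555, 619.6, 588 and 699 in Foxp3DTR libraries 1 to 4. Every Foxp3DTR library was below every WT library, and the log2 fold change of -0.82 (SE 0.36) did not pass the test over all libraries (limma, adjusted p = 0.27). Btg1 and Btg2 encode antiproliferative proteins that bring the CCR4-NOT deadenylase to mRNAs. Btg1 was at 409, 495 and 532 in WT mice and at 344, 320.4, 318 and 329 in Foxp3DTR mice (log2 fold change -0.54, SE 0.18, limma, adjusted p = 0.17). Btg2 was at 164, 222 and 213 in WT mice and at 127, 143, 116 and 101 in Foxp3DTR mice (log2 fold change -0.71, SE 0.21, limma, adjusted p = 0.13). In both BTG genes the groups did not overlap. Zfp36l1, a close relative of Zfp36, went the other way in its means, with 51.9, 43.5 and 105 in WT mice and 69.0, 56.5, 74.7 and 101 in Foxp3DTR mice, and its libraries overlapped.

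**Figure D2:**
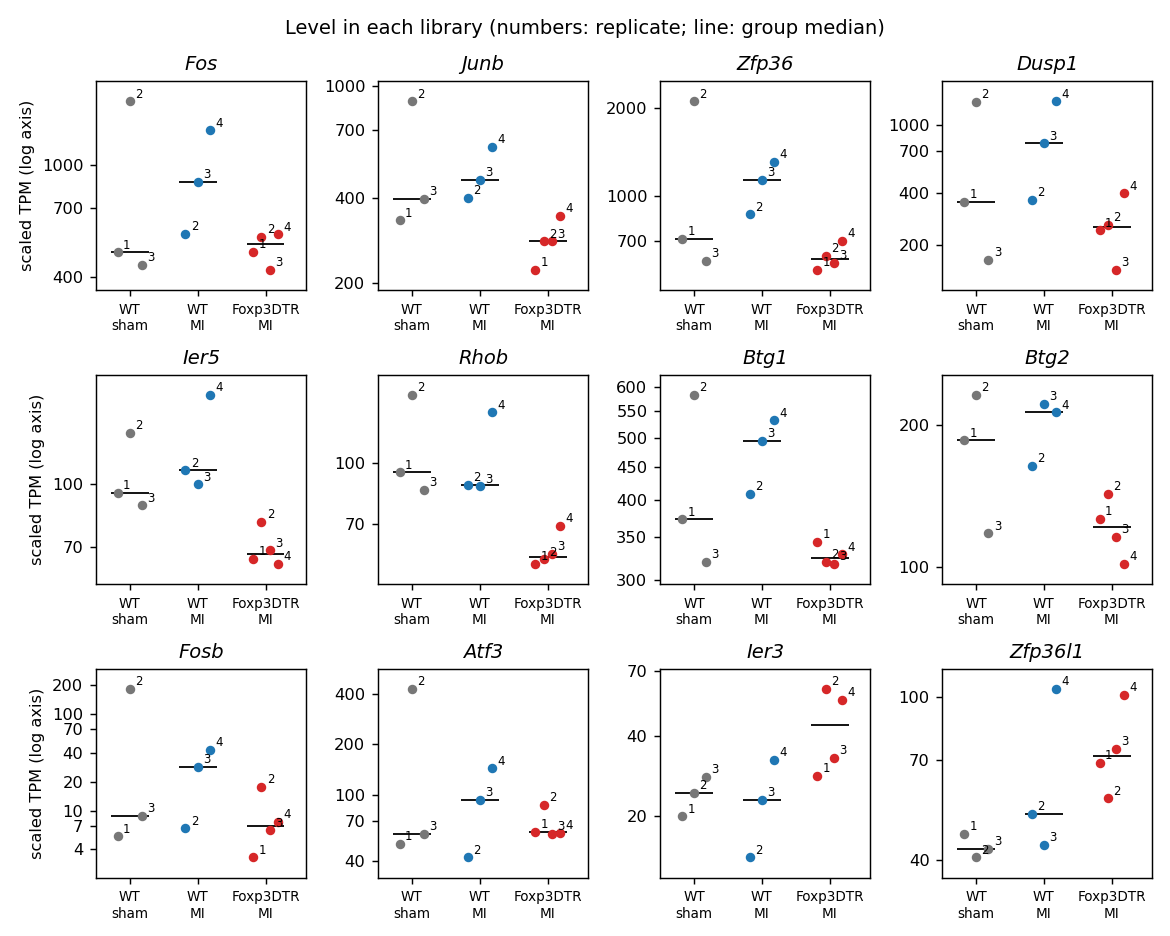
Scaled TPM (log axis) of 12 members in each library, with points for libraries, numbers for their replicates and a line for the group median. Fos, Junb, Zfp36, Ier5, Rhob, Btg1 and Btg2 have all 4 Foxp3DTR points below the 3 WT MI points, sham replicate 2 lies on top in Fos, Junb, Zfp36, Fosb and Atf3, and Ier3 is at 28.3 to 59.9 in Foxp3DTR mice.

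The genes named for their immediate-early response did not share a direction. Ier5 (chr1:155096367-155099636), a nuclear regulator of phosphatase and heat shock factor activity, had the lowest p of all members. It stood at 108, 100.04 and 166 scaled TPM in WT MI libraries 2, 3 and 4 and at 65.7, 80.9, 68.9 and 63.8 in Foxp3DTR libraries 1 to 4, with a log2 fold change of -0.80 (SE 0.19, limma, adjusted p = 0.072). Ier2, a nuclear protein of the same family, was at 266, 283 and 338 in WT mice and at 158, 187, 197 and 245 in Foxp3DTR mice (log2 fold change -0.59, SE 0.21, limma, adjusted p = 0.18). For both genes the highest Foxp3DTR library was below the lowest WT library. Ier3, an unrelated survival gene that responds to NF-kB, stood at 13.9, 22.9 and 32.5 in WT mice and at 28.3, 59.9, 32.98 and 54.5 in Foxp3DTR mice. It was the member with the largest positive log2 fold change (0.91, SE 0.31, limma, adjusted p = 0.17), overlapped by 1 library on either side, and was at 0.60 without WT MI library 2.

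Among signalling genes, Dusp1 had the largest negative fold change of all members and a wide spread. It stood at 365, 779.5 and 1367 scaled TPM in WT MI libraries 2, 3 and 4 and at 244, 263, 143 and 400.2 in Foxp3DTR libraries 1 to 4, with a log2 fold change of -1.56 (SE 0.66, limma, adjusted p = 0.25). The groups overlapped through Foxp3DTR library 4 and WT MI library 2. Rhob (chr12:8497759-8499985), a small GTPase of endosomes that is itself an immediate-early gene, was at 88.3, 87.3 and 135 in WT mice and at 55.5, 56.9, 58.8 and 69.2 in Foxp3DTR mice (log2 fold change -0.75, SE 0.21, limma, adjusted p = 0.10). Sgk1, a kinase induced by serum and glucocorticoids, was at 77.4, 86.8 and 79.8 in WT mice and at 47.2, 70.0, 60.9 and 48.4 in Foxp3DTR mice (log2 fold change -0.53, SE 0.24, limma, adjusted p = 0.29). Neither Rhob nor Sgk1 overlapped between the groups, nor did Dusp2, a nuclear phosphatase of ERK and p38 kinases, with 27.6 to 43.4 against 11.1 to 20.0. Gadd45b, a stress sensor that activates p38, stood at 16.4, 9.21 and 12.7 in WT mice and at 16.3, 20.8, 22.0 and 15.8 in Foxp3DTR mice. It differed by 0.54 on the log2 scale (SE 0.24, limma, adjusted p = 0.27) and 0.34 without WT MI library 3. Dusp5, a phosphatase of nuclear ERK, was at 7.23 to 18.03 in WT mice and at 7.88 to 15.8 in Foxp3DTR mice.

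The other regulators of transcription showed no separation, with 0 of 7 tested lacking overlap and 5 of 7 fold changes positive. Klf6, a zinc finger factor of myeloid activation and the most abundant of them, was at 175 to 216 scaled TPM in WT mice and at 187 to 216 in Foxp3DTR mice. Egr1, the prototype of the EGR family, was low, at 2.64 to 5.03 against 3.28 to 8.05, and Egr2 and Nr4a3 were lower still, at 0.22 to 3.01 and 0.32 to 1.196 in WT mice. Nfkbiz, a nuclear IkB protein that steers secondary response genes, was at 81.1 to 167 in WT mice and at 65.8 to 93.8 in Foxp3DTR mice, with overlap. Csrnp1 (10.9 to 33.9 against 20.5 to 28.9) and Nr4a2 (1.87 to 6.40 against 1.16 to 5.68) overlapped too. All 4 heat shock and translation stress genes had negative fold changes (median -0.56) and overlapping libraries. Hspa1a was at 5.92 to 13.02 scaled TPM in WT mice and at 2.61 to 7.09 in Foxp3DTR mice, and Hspa1b at 4.49 to 11.8 and 2.21 to 7.78. The HSP70 co-chaperone Dnajb1 was almost flat, at 39.6 to 47.8 and 37.3 to 42.3. Ppp1r15a (GADD34), which restores translation after stress by directing a phosphatase to eIF2α, was at 32.1 to 98.9 and 33.2 to 64.6. Reads of Hspa1a and Hspa1b cannot be kept apart in full, since 62.3% of the 50-base windows of Hspa1b transcripts occur in Hspa1a as well, and 48.3% of those of Jund, 54.4% of Zfp36l1 and 20.5% of Dusp5 occur in other gene models that are not among the table entries. Ppp1r15a overlaps Tulp2, a listed gene on the other strand.

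**Figure D3:**
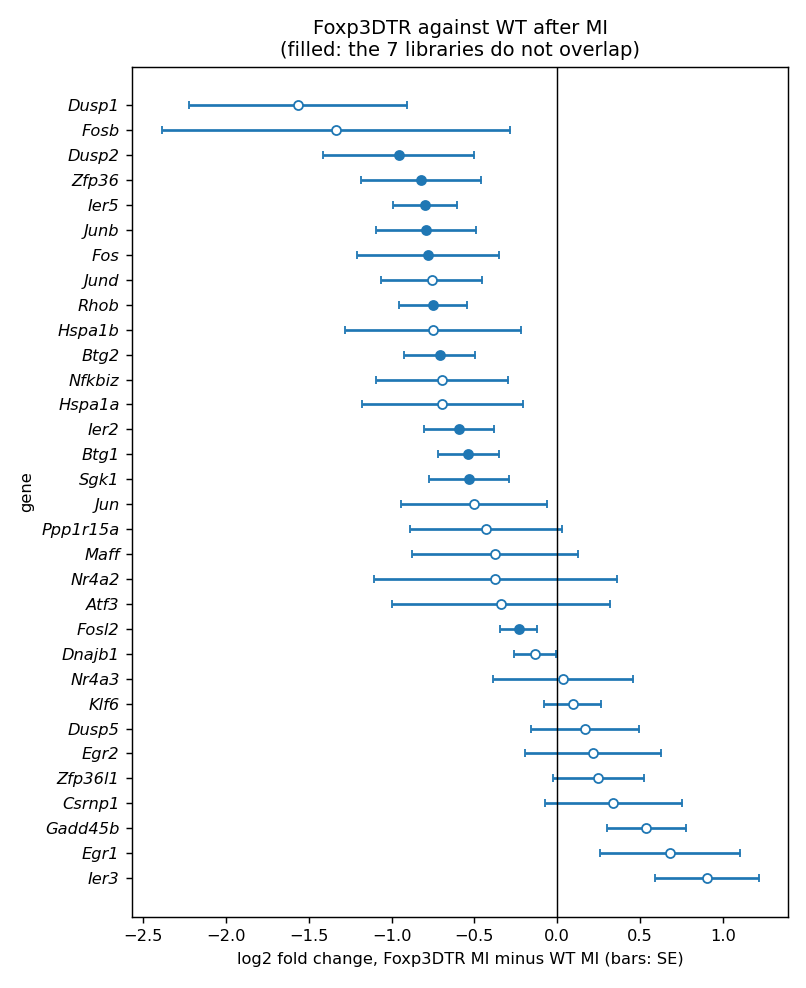
Log2 fold change between Foxp3DTR and WT mice after MI (points) with its standard error (bars) for the 32 tested members, ordered by size. Filled points mark the 11 members without overlap, which all lie below 0, and the range runs from -1.56 for Dusp1 to 0.91 for Ier3.

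The test shares its estimate of the spread with the sham group, so that sham library 2 enters it although neither group compared holds it. Without this library the fold changes were the same to within 0.01, and 5 members passed, all of them lower in Foxp3DTR mice (limma, adjusted p = 0.032 for Zfp36, 0.037 for Btg1, 0.038 for Rhob and Ier5 and 0.049 for Junb), when 3.36% of all genes passed. With the 2 MI groups alone, Btg2 (limma, adjusted p = 0.035) was added to these 5, and 4.47% of all genes passed. With array weights Ier5 and Rhob passed, when 3.08% of all genes did, and without sham library 3 Btg2 passed (limma, adjusted p = 0.037), when 3.30% of all genes did. On TPM without scaling the log2 fold changes of Btg1, Btg2, Ier2 and Sgk1 were smaller by more than 1.5 times, at -0.29, -0.47, -0.35 and -0.29. Sums of markers of other cells moved with this comparison. T cell markers (10 of 13 listed were in the tables) summed to 14.6 to 18.4 scaled TPM in WT mice after MI and to 35.3 to 114 in Foxp3DTR mice, NK cell markers (9) to 38.6 to 79.99 and 106 to 258, and neutrophil markers (13) to 398 to 689 and 1291 to 2939. The groups did not overlap in any of these sums, and 0 of 10 T cell, 2 of 9 NK cell and 3 of 13 neutrophil markers were called, all higher in Foxp3DTR mice (limma). Of the neutrophil markers Retnlg was listed at 0 in all 3 WT MI libraries, which held for none of the T and NK cell markers. Markers of Ly6Clow monocytes (9), among them Nr4a1, the factor that their development needs, summed to 1231 to 1574 in WT mice and to 719 to 830 in Foxp3DTR mice, also without overlap. Of these 9 markers 7 had negative fold changes (median -0.89), all 7 with an unadjusted p under 0.05, and 2 were called, both lower (limma). All 8 mitosis markers had positive fold changes (median 1.05), 4 with an unadjusted p under 0.05, 0 without overlap and 0 called (limma). The sum of the 10 Ly6Chigh monocyte markers was 42438 to 48000 in WT mice and 24705 to 40056 in Foxp3DTR mice, far above the other sums in every library. This sum did not overlap between the groups either, but the single markers did not share its direction. Of the 10 markers 6 had positive fold changes (median 0.061). By unadjusted p under 0.05, 3 were higher and 1 was lower, and 0 were called (limma). The part of these cells in the members' levels was not tested, and in bulk RNA fewer cells of a type and less RNA per cell cannot be told apart.

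The comparison of WT mice after MI with sham surgery asks whether these genes moved with infarction in splenic monocytes of WT mice. Since toxin in sham mice is not stated separately, a part of toxin in this comparison cannot be told apart from infarction. The direction over the members depended on sham library 2. Of the 32 members 0 passed the test, as did 0% of all genes (limma, lowest adjusted p = 0.96 in the members), and 0 had an unadjusted p under 0.05, against 4.64% of all genes. Members without overlap numbered 0, against 6.91% of all genes. The fold change was negative in 24 of 32, against 50.4% of all genes, with a median of -0.10. Fos was at 489.9, 1679.8 and 442 scaled TPM in sham libraries 1, 2 and 3, so that library 2 exceeded all WT MI libraries (569.9 to 1326) while libraries 1 and 3 lay below them. It differed by 0.29 on the log2 scale (SE 0.46, limma, adjusted p = 0.98), 0.90 without sham library 2, -0.060 without sham library 3 and -0.017 without WT MI library 4. Zfp36 showed the same order of libraries, with 711, 2116 and 596 in sham mice against 863 to 1307 after MI. It differed by 0.17 on the log2 scale (SE 0.39, limma, adjusted p = 0.98), 0.74 without sham library 2, -0.18 without sham library 3, -0.049 without sham library 1, -0.038 with the replicate block and -0.012 on TPM without scaling. Markers of other cells moved here as well. Of 13 neutrophil markers 11 had negative fold changes, and 7 were lower without overlap, against 3.73% of all genes. All 7 tested erythroid markers (median -1.69) and 9 of 10 T cell markers (median -1.14) were negative, whereas 7 of 8 mitosis markers were positive (median 0.68). Single libraries stood out in the sums. In sham libraries 1, 2 and 3 neutrophil markers summed to 621, 636 and 1521 scaled TPM, erythroid markers to 10.1, 59.0 and 235 and T cell markers to 18.1, 27.9 and 149. Mitosis markers summed to 423, 114 and 169 in WT MI libraries 2, 3 and 4, against 107 to 267 after sham surgery. In each of these lists 0 were called (limma), and their part in the members' levels was not tested.

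The lowest p-values of this comparison belonged to 4 members with modest differences (limma, adjusted p = 0.96 for each). Klf6 was at 207, 339.9 and 206 scaled TPM after sham surgery and at 175, 177 and 216 after MI, a log2 fold change of -0.37 (SE 0.18) that was -0.14 without sham library 2. Zfp36l1 was at 46.3, 40.5 and 42.5 after sham surgery and at 51.9, 43.5 and 105 after MI, a log2 fold change of 0.51 (SE 0.29) that was 0.14 without WT MI library 4. Gadd45b was at 11.8, 19.7 and 20.6 after sham surgery, a log2 fold change of -0.41 (SE 0.25) that was -0.65 without sham library 1, -0.27 without sham library 3 and -0.21 without WT MI library 3. Egr1 was at 2.58, 11.9 and 7.14 after sham surgery and at 2.99, 2.64 and 5.03 after MI, a log2 fold change of -0.70 (SE 0.45) that was -1.205 when sham library 1 was left out and -0.28 without sham library 2.

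Without sham library 2 the median over the members was 0.39 instead of -0.10, with 6 of 31 negative, against 51.9% of all genes. All 3 WT MI libraries then lay above both remaining sham libraries in 9 of 31 members (Fos, Junb, Ier2, Ier5, Btg1, Dusp1, Dusp2, Zfp36 and Sgk1), against 7.89% of all genes, and below them in 0, against 8.65%. Sgk1 was at 57.1 and 49.3 scaled TPM in sham libraries 1 and 3 and at 77.4 to 86.8 after MI, where sham library 2 was at 110.0. Btg1 was at 373 and 320.1 in sham libraries 1 and 3 and at 409 to 532 after MI, where sham library 2 was at 583. In both genes sham library 2 was thus above every MI library. Also without this library 0 members passed the test (limma, lowest adjusted p = 0.94), and 6 had an unadjusted p under 0.05, all higher after MI, against 2.32% of all genes.

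**Figure D4:**
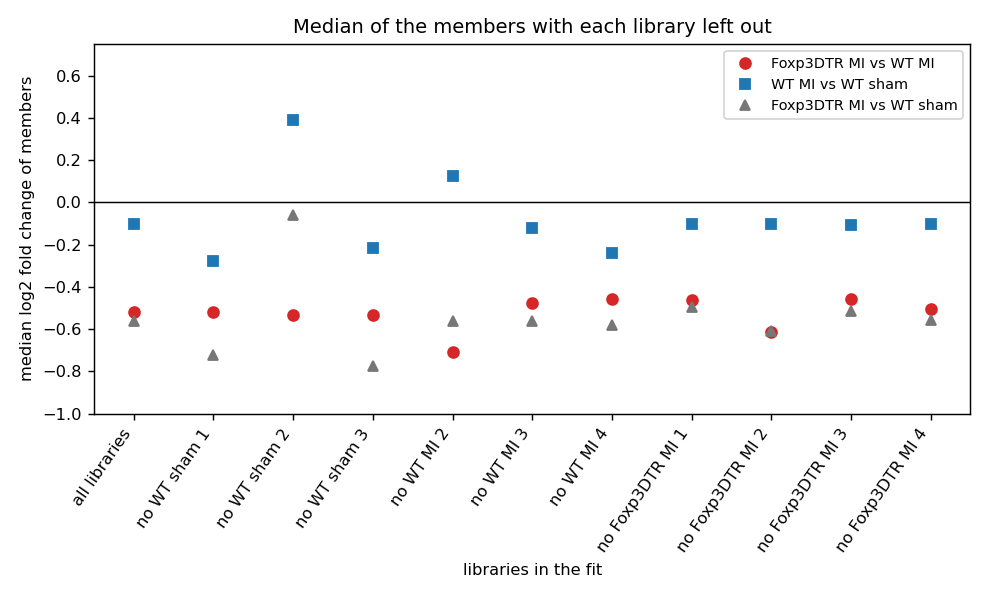
Median log2 fold change of the members (vertical axis) in each of the 3 comparisons, with all libraries and with each library left out in turn (horizontal axis). The median between Foxp3DTR and WT mice after MI stays between -0.71 and -0.46, whereas the medians against sham surgery move to 0.39 and -0.060 without sham library 2.

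Foxp3DTR mice after MI were also set against WT mice after sham surgery, a comparison in which genotype, toxin and infarction cannot be told apart and which shares libraries with both others. Of the 32 members 0 passed the test, against 0.541% of all genes, and 8 were lower and 2 higher by unadjusted p under 0.05, against 8.41% and 10.2% of all genes. Without overlap, 4 members were lower (Fosl2, Jund, Ier5 and Rhob) and 2 higher (Ier3 and Zfp36l1), against 8.44% and 9.80% of all genes. The fold change was negative in 28 of 32, against 51.0% of all genes, with a median of -0.56 that was -0.060 without sham library 2, when 19 of 31 were negative, against 51.4% of all genes. Rhob was at 94.9, 149 and 85.7 scaled TPM after sham surgery and at 55.5 to 69.2 in Foxp3DTR mice, a log2 fold change of -0.82 (SE 0.21, limma, adjusted p = 0.10) that passed without sham library 3 (-0.98, adjusted p = 0.038), as did Btg2, when 4.98% of all genes passed. Fosl2 was at 93.3, 121 and 99.8 after sham surgery and at 75.7 to 81.1 in Foxp3DTR mice (log2 fold change -0.40, SE 0.11, limma, adjusted p = 0.12). Ier5 was at 95.2, 134 and 88.9 after sham surgery (log2 fold change -0.58, SE 0.19, limma, adjusted p = 0.16), above all 4 Foxp3DTR libraries. Ier2 was at 263, 424 and 231 (log2 fold change -0.60, SE 0.21, limma, adjusted p = 0.17, and -0.34 without sham library 2), where Foxp3DTR library 4 reached above sham library 3. Fos had a log2 fold change of -0.50 (SE 0.43, limma, adjusted p = 0.56), which was 0.12 without sham library 2, -0.77 without sham library 1 and -0.84 without sham library 3. Zfp36 had -0.65 (SE 0.36, limma, adjusted p = 0.37), which moved to -0.087 when sham library 2 was left out and to -0.9987 when sham library 3 was. Ier3 in Foxp3DTR mice (28.3 to 59.9 scaled TPM) was above the 19.9 to 27.97 of sham libraries, by a small margin at the lowest library. Zfp36l1 in Foxp3DTR mice (56.5 to 101) was above the 40.5 to 46.3 of sham libraries. Markers of other cells and of mitosis moved with this comparison too. All 8 mitosis markers had positive fold changes with an unadjusted p under 0.05 (median 1.48), 4 without overlap and 0 called (limma), and their sum was 107 to 267 scaled TPM after sham surgery and 247 to 605 in Foxp3DTR mice. Of the 9 Ly6Clow monocyte markers 8 were negative (median -0.67) and 1 was called, lower (limma), with sums of 902 to 1708 and 719 to 830. Their part in the members' levels was not tested.

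Other genes of the same pathways were taken from 7 lists, and of 127 tested genes on them, each gene counted once, 1 passed between Foxp3DTR and WT mice after MI, against 1.12% of all genes. This was Rps6ka4 (MSK2), a kinase below ERK and p38 that phosphorylates CREB and histones at immediate-early genes. It stood at 23.3, 23.3 and 24.6 scaled TPM in WT MI libraries 2, 3 and 4 and at 34.9, 31.1, 32.99 and 34.2 in Foxp3DTR libraries 1 to 4, and rose by 0.47 on the log2 scale (SE 0.093, limma, adjusted p = 0.048). The groups lay well apart, but the call was lost in 10 of 21 alternatives, without any 1 of the 7 MI libraries, without sham library 1, with no variance trend and with the replicate block, where adjusted p-values lay between 0.058 and 0.12. Of 33 tested other immediate-early genes 22 had negative fold changes (median -0.25), and Hes1, a Notch target and repressor, was lowest in p, with 40.1, 27.7 and 24.9 in WT mice and 9.58, 11.6, 13.8 and 7.52 in Foxp3DTR mice (log2 fold change -1.46, SE 0.30, limma, adjusted p = 0.052). Of 18 other AP-1, ATF and Maf factors 11 were positive (median 0.10), led by the interferon-induced Batf2 with 3.72, 12.7 and 4.93 in WT mice and 22.9, 33.1, 42.2 and 29.4 in Foxp3DTR mice (log2 fold change 2.15, SE 0.52, limma, adjusted p = 0.072). Over the 21 alternatives Batf2 passed in 6 and Hes1 in 5.

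The remaining 5 lists had medians between -0.24 and 0.074. Of 26 MAP kinase and serum response factor genes 15 were negative (median -0.068), and of 19 tested heat shock genes 9 were negative (median 0.074), with Hsp90aa1, a cytosolic HSP90, at 0.39 (SE 0.19, limma, adjusted p = 0.31). Of 12 tested genes of the integrated stress response 7 were negative (median -0.037), with the asparagine synthetase Asns at 0.91 (SE 0.37, limma, adjusted p = 0.24) from a low level of 0.51 to 4.23 scaled TPM in the 7 MI libraries. Of 12 glucocorticoid response genes 8 were negative (median -0.24), with Hsd11b1, which regenerates corticosterone, at 1.19 (SE 0.36, limma, adjusted p = 0.13). Of 10 CCR4-NOT subunits 4 were negative (median 0.014), with the catalytic subunit Cnot6 at 0.33 (SE 0.096, limma, adjusted p = 0.12). Over the alternatives these 4 fold changes ranged from 0.23 to 0.63 for Hsp90aa1, from 0.39 to 1.37 for Asns, from 0.79 to 1.56 for Hsd11b1 and from 0.30 to 0.57 for Cnot6. Hsd11b1 and Cnot6 passed in 1 alternative each. Against sham surgery 0 of 127 genes on these lists passed either in WT or in Foxp3DTR mice (limma), and unadjusted p under 0.05 was found for 6 of them in WT mice and 26 in Foxp3DTR mice, against 4.64% and 18.6% of all genes.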

How the data were processed

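Sorted splenic monocytes of 10 samples were profiled by RNA sequencing. Tools named by the submitters' processing notes are StringTie 1.3.0, STAR 2.5, cutadapt 1.1 and CASAVA 1.4, with the mouse build mm10. The authors deposited a table for each sample that holds read coverage (a signal), FPKM and TPM for each gene, and no read counts, so that a count test was not used. TPM was summed for each gene symbol. Depth was read from the ratio of deposited coverage to FPKM for 50 bp reads and covers the reads assigned to genes. The number of columns of no sample was 0.

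TPM values were divided by median-of-ratios factors and log2(value + 1) was tested with limma 3.58.1 (R 4.3.3) with a variance trend, 3 group means over 10 libraries and no covariate. Genes needed 1 TPM in at least 3 libraries. Fold changes on this scale understate those of low genes. The step was tested on simulated data with independent noise and large changes added to genes of low spread. This does not show its power for the members, whose spread was wider and whose differences were mostly smaller. Statistics are printed for the 12 members with the lowest p between the MI groups, the 4 with the lowest p in each other comparison, the 2 with the highest mean level, and, from each of 7 pathway lists, the genes that passed or the gene with the lowest p. Replicate numbers, shared between groups, were not used as pairs. Of 8 pairs of samples with the same number 1 had a correlation of deviations over 0.1 (range -0.19 to 0.19), against 4 of 25 with unlike numbers. So few libraries cannot exclude pairing. The members and all lists were chosen with earlier results of these data known. Tables and plots were made with Python 3.11.15, pandas 2.3.3, numpy 2.4.6 and matplotlib 3.10.9. Alternatives were other scalings, FPKM, pseudocounts of 0.1 and 5, no filter or 5 TPM, the compared groups alone, no variance trend, array weights, a replicate block and leaving out each library.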

Additional observations from a re-analysis of the deposited data

Results flagged for a closer look

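Atf3 in the Foxp3DTR mice after MI had 1 library far from the others. Library 2 was at 87.1 scaled TPM and libraries 1, 3 and 4 at 58.5 to 59.8, so that its gap to the nearest library took 0.953 of the range of its 4 libraries, above the 95% critical value of Dixon's test. Chance alone gives a gap above this critical value in about 1 in 20 groups, and a gap as large as 0.953 less often. All 33 members were examined in this way in the Foxp3DTR mice, so that 1 gap above the critical value among them is not unusual. The groups of 3 libraries were not examined in this way.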

How the results depend on the processing

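Against 21 alternatives, 29 of 32 printed fold changes kept their sign. The exceptions, WT MI against sham, were Zfp36 (-0.012 unscaled, -0.038 with the replicate block, -0.049 without sham library 1, -0.18 without sham library 3) and Fos (-0.060 without sham library 3, -0.017 without WT MI library 4), and, Foxp3DTR against sham, Fos (0.12 without sham library 2). On leaving out 1 library, Fos and Zfp36 against sham ran up to 0.90 and 0.74 in WT MI, and Fos down to -0.84 in Foxp3DTR mice. The cause was not tested.

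Between the MI groups, members called (0) became 6 with the 2 groups alone, 2 with array weights and 0 to 5 on leaving out 1 library, most without sham library 2. Pathway genes called (1) became 10 unscaled, 2 with the 5 TPM filter, 7 with the 2 groups alone, 0 without variance trend, 5 with array weights, and 0 to 7 on leaving out 1 library. The share of all genes called moved as well, from 1.12% to 4.07% unscaled, 1.36% with the 5 TPM filter, 4.47% with the 2 groups alone, 0.572% without variance trend, 3.08% with array weights, 0.626% with the replicate block and 0% to 3.36% on leaving out 1 library. Members without overlap (11, all lower, with 19.0% of all genes) became 7 unscaled (6 lower, with 21.7% of all genes higher and 2.70% lower) and 11 to 20 on leaving out 1 library. There were 19 without WT MI library 2 (18 lower) and 20 without WT MI library 4 (14 lower), when 34.4% and 28.4% of all genes did not overlap, since fewer libraries overlap less. The median stayed between -0.71 and -0.28. Between WT MI and sham, members without overlap (0) became 2 unscaled (14.2% of all genes) and 0 to 9 on leaving out 1 library (6.88% to 19.0% of all genes), and the median ran from -0.28 to 0.39. Between Foxp3DTR and sham, leaving out 1 library gave 0 to 2 members called, 0 to 8 pathway genes called, 6 to 14 members without overlap (18.2% to 34.2% of all genes) and medians from -0.78 to -0.060. The highest of these counts came without sham library 3. Without scaling the median of all genes shifted to 0.22 between the MI groups and to -0.17 between WT MI and sham. Asns had no value at the 5 TPM filter.

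Whether the replicate numbers pair the samples could not be decided from so few libraries. The median correlation was 0.00074 for same-numbered samples and 0.00075 for samples with unlike numbers. A replicate block gave 0 members called in each comparison, 2 pathway genes called between the MI groups, and member medians of -0.38, -0.34 and -0.68 in the 3 comparisons. Sham library 2, which moved the member medians against sham surgery most when left out, is also the shallowest (3.13 M reads). The part of depth in this was not tested. With few reads low genes such as Egr2, Egr3 and Nr4a3 are measured least precisely.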
